A study of Mus musculus with 14 samples.

Results

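The small leucine-rich proteoglycans are secreted matrix proteins with a core of leucine-rich repeats that in many, though not all, of them carries chondroitin, dermatan or keratan sulfate chains. They bind collagen fibrils and set their spacing and width, and several of them also hold growth factors such as transforming growth factor beta or engage cell surface receptors. In the liver their known sources are hepatic stellate cells, which line the sinusoids and store vitamin A, and the fibroblasts of the portal tract and capsule. The 9 members were read by gene symbol: Dcn (decorin), Bgn (biglycan) and Aspn (asporin) of class I, Lum (lumican), Fmod (fibromodulin), Prelp (prolargin) and Omd (osteomodulin) of class II, Ogn (osteoglycin) of class III and Podn (podocan) of class V. These 9 genes were found among 35171 gene rows of the bulk tables and among 28692 genes of the single-cell table.

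RNA was profiled in 13 bulk libraries and 1 single-cell library of uninjured mouse liver, in a series on the receptor P2Y14 and its ligand UDP-glucose. Stellate cells labelled Balbc were cultured on plastic for 24 h with 10 µM UDP-glucose (3 libraries) or without it (3 libraries), after 5 h of plating in 10% serum and a change to 0.1% serum. The titles of the treated libraries say UDP and their descriptions UDP-glucose. Quiescent, unplated stellate cells (4 libraries) carried LratCre and TdTom on C57BL/6J and were sorted for vitamin A and for the TdTom that the stellate-cell driver Lrat switches on. Whole liver (3 libraries) came from mice of that same genotype, and the single-cell library from a normal C57BL/6 liver that had been digested. No age is given, and no sort is described for the cultured cells. Bulk values are TPM, transcripts scaled to a fixed library total with allowance for gene length, and the read depth behind them is unknown. Nothing in the labels says that replicate libraries are different mice or dishes, so a p-value here reads the spread between libraries, which may be technical.

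The cultured cells, the quiescent cells and whole liver stand in separate tables, and strain, sort and culture also differ between the cultured and the quiescent cells, so these cannot be told apart in a comparison across tables. All 12 stellate cell markers listed averaged at least 1 TPM in each of the 3 stellate cell groups. Their summed level was 3554 to 4090 TPM in UDP-glucose cultures, 3964 to 4058 TPM in control cultures, 37401 to 42302 TPM in quiescent cells and 53.3 to 129 TPM in liver. In bulk libraries, fewer cells of a type and less RNA per cell cannot be told apart.

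The genes lie in groups along the genome (GENCODE vM21, build GRCm38). Prelp (chr1:133910304-133921414, minus strand) and Fmod (chr1:134037254-134048277, plus strand) are separated by 115839 bases. Dcn (chr10:97479609-97518143) and Lum (chr10:97565128-97572703) lie 46984 bases apart on the plus strand. Aspn (chr13:49544443-49567565), Omd (chr13:49582462-49592822) and Ogn (chr13:49608046-49624501) follow each other on the plus strand, with gaps of 14896 and 15223 bases. Podn lies at chr4:108014791-108096445 on the minus strand and Bgn at chrX:73483602-73495933 on the plus strand. Of the exon bases of Prelp 9.68% lie in another gene model, Gm15851, and of those of Aspn 0.297% in Cenpp; the other members share no exon bases.

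Of the 9 members, 7 have an entry in the RefSeq promoter table (build GRCm38.p6). The 250 bases before the start are printed for 4 of them because of their levels: Prelp and Fmod are neighbours with very unlike levels, Bgn is the second most abundant member, and Ogn is the member whose level differed least between cultured and quiescent cells. Each is written 5′ to 3′ along its gene, and capitals mark matches to any of 4 motifs searched on both strands: the TATA box (TATAAA), an AP-1 site (TGANTCA), a TEAD site (GGAATG) and an SP/KLF site (GGGCGG). The windows are chr1:133921402-133921651 on the minus strand for Prelp, chr1:134037004-134037253 on the plus strand for Fmod, chrX:73483351-73483600 on the plus strand for Bgn and chr13:49607765-49608014 on the plus strand for Ogn.
Prelp: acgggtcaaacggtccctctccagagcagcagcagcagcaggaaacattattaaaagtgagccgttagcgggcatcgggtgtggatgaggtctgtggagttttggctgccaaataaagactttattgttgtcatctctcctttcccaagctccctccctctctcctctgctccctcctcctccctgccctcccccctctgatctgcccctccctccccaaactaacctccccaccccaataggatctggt
Fmod: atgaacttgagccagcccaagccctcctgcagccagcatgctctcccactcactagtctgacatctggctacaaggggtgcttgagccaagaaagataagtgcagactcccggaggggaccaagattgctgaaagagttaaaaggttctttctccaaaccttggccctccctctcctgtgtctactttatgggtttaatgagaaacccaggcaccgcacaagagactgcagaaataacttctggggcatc
Bgn: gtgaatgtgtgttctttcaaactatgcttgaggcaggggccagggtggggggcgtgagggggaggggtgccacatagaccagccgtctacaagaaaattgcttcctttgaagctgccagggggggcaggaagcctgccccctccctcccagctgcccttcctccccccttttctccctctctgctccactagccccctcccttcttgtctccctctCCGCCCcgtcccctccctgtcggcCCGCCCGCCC
Ogn: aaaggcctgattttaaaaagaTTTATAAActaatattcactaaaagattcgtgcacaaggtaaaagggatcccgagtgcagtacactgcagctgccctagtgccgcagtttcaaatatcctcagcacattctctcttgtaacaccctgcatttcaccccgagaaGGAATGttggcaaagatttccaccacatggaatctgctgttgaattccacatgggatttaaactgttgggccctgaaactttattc
Of these letters 55.6% were G or C for Prelp, 51.2% for Fmod, 64.4% for Bgn and 42.0% for Ogn. The Prelp and Fmod windows held none of the 4 motifs. The Bgn window held the SP/KLF letters 3 times on the reverse strand, all within 34 bases of the start, with 2 of the matches overlapping. The Ogn window held a TATA box on each strand, overlapping and more than 200 bases before the start, and 1 TEAD match 86 bases before it. Over all 32851 windows of the table, 12.4% held the TATA box, 6.75% the AP-1 site, 12.6% the TEAD site and 32.7% the SP/KLF site. These matches describe letters and not binding.

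In quiescent stellate cells 2 members were among the most abundant transcripts of all. Dcn, whose protein binds collagen I fibrils and transforming growth factor beta, was at 20489, 22331, 24271 and 23222 TPM in the quiescent libraries, against 20.2, 45.2 and 47.0 TPM in whole liver. It ranked 2, 1, 1 and 2 among all genes of the quiescent libraries and between 1445 and 2294 in liver. Bgn, a class I relative that also acts on Toll-like receptors when shed, was at 8765, 9027, 9225 and 10341 TPM in quiescent cells, against 9.71, 20.5 and 21.2 TPM in liver. Every quiescent library lay far above every liver library for both genes, and the first liver library was the lowest of its group for each. The class II members Prelp and Lum followed the same order. Prelp, which anchors basement membranes to collagen, was at 3497, 3655, 3409 and 3949 TPM in quiescent cells, against 2.07, 4.91 and 3.78 TPM in liver. Lum, a keratan sulfate proteoglycan that limits fibril width, was at 973, 1044, 1006 and 988 TPM in quiescent cells, against 0.907, 1.87 and 2.11 TPM in liver.

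The other members were scarcer in every group. Ogn ran from 44.0 to 51.4 TPM and Podn from 34.4 to 46.6 TPM in quiescent cells, against 0.391 to 0.676 TPM and 0.915 to 1.27 TPM in liver. Omd, a keratan sulfate proteoglycan of bone, ran from 3.32 to 5.12 TPM in quiescent cells and from 0.810 to 1.84 TPM in liver. Fmod, which competes with lumican for collagen, ran from 0.395 to 1.11 TPM in quiescent cells and from 0.210 to 0.519 TPM in liver, although its neighbour Prelp averaged 3627 ± 237 TPM in the same quiescent cells (SD, n = 4). Aspn was listed at 0 in 2 quiescent libraries and reached at most 0.241 TPM in any of the 13 libraries.

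Among the quiescent libraries the order of mean levels was Dcn, Bgn, Prelp, Lum, Ogn, Podn, Omd, Fmod and Aspn. Each of Dcn, Bgn, Prelp and Lum was separated from the next by more than its spread. Ogn (46.3 ± 3.38 TPM) and Podn (38.9 ± 5.69 TPM, SD, n = 4 each) overlapped in their library values, as 1 Podn library reached 46.6 TPM.

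**Figure D1:**
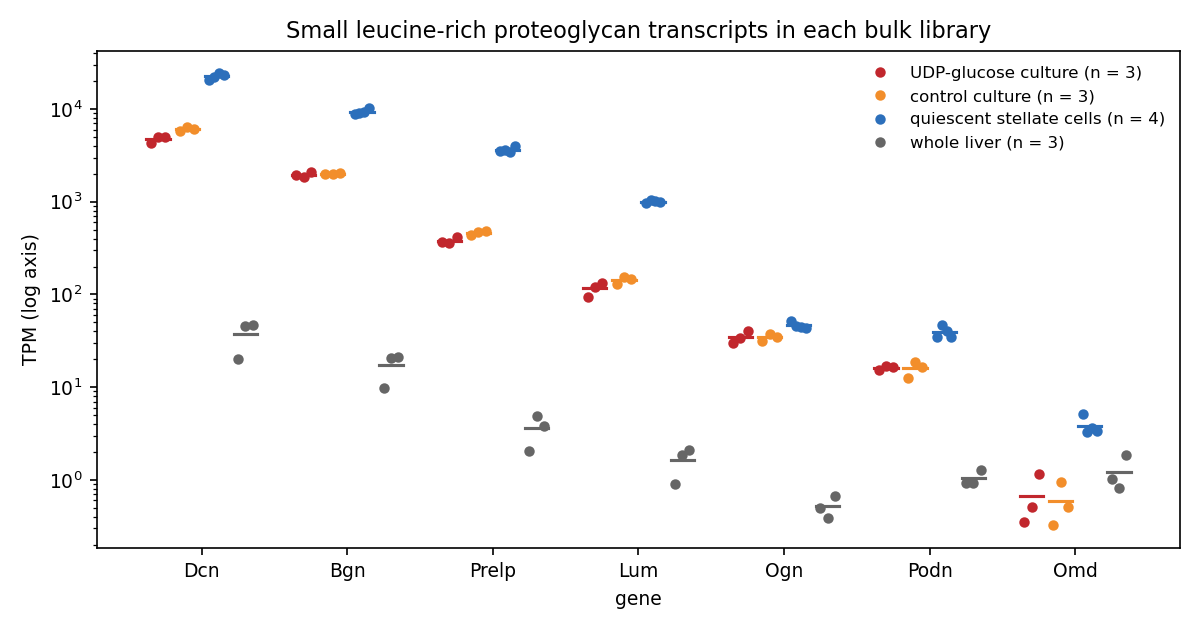
TPM of 7 members (columns) in each bulk library, on a log axis; points are libraries and short lines group means, with UDP-glucose cultures, control cultures, quiescent stellate cells and whole liver from left to right in each column. In quiescent cells Dcn lies between 20489 and 24271 TPM and every library lies above all liver libraries for each of the 7 genes.

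Quiescent stellate cells were set against whole liver to ask which transcripts this cell type concentrates. All 7 members that passed the filter on low values (a mean of at least 1 TPM) were called higher in quiescent cells, where limma called 67.0% of the 12643 genes tested higher, 10.9% lower and so 77.9% in either direction (adjusted p under 0.05 and at least 1 on the log2 scale). Fmod and Aspn did not pass the filter. Over all genes the log2 fold changes had a median of 1.62, which median-of-ratios rescaling brought to 0.04, and higher genes were then 50.6% of those called, against 86.0% without rescaling. With that rescaling 6 of the 7 members were called higher and Omd was not. By size of the difference 4 members stood near the top. Prelp had the third largest rise of all genes tested, at 9.68 on the log2 scale (SE 0.19, limma adjusted p = 5.43e-12) and with mean levels that differed 1012-fold. Dcn ranked 9 with 9.29 (SE 0.25, limma adjusted p = 3.88e-11), Bgn 13 with 9.08 (SE 0.23, limma adjusted p = 2.42e-11) and Lum 21 with 8.61 (SE 0.16, limma adjusted p = 4.06e-12). Relative to the median of all genes these are 8.06, 7.66, 7.46 and 6.99 on the log2 scale. The 12 stellate cell markers were all called higher as well, with a median of 8.425, so such rises were common among stellate genes. Mean levels differed 603-fold for Dcn, 544-fold for Bgn and 615-fold for Lum, so Lum is not the lowest of them by that measure. The log2 scale adds 1 TPM to each value, and Lum in liver was at 0.907 to 2.11 TPM.

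Ogn rose by 4.96 (SE 0.12, limma adjusted p = 1.60e-11) and Podn by 4.28 (SE 0.14, limma adjusted p = 1.55e-10) on the log2 scale, or 3.34 and 2.66 above the median gene; with quantile normalisation Podn was at 2.71. Omd rose by 1.14 (SE 0.19, limma adjusted p = 0.000169), which is 0.48 below the median gene. After median-of-ratios rescaling Omd was at −0.16 (limma adjusted p = 0.477) and after quantile normalisation at −0.36 (limma adjusted p = 0.121), so its direction depends on the scaling. The groups did not overlap for any of the 7 members, as for 91.1% of all genes. Markers of other sinusoidal cells were also present in the sorted cells: all 12 sinusoidal endothelial markers averaged at least 1 TPM there, with sums of 320 to 965 TPM in quiescent libraries and 37.8 to 88.0 TPM in liver. All 11 Kupffer markers did too, with sums of 91.3 to 189 TPM in quiescent cells against 58.1 to 107 TPM in liver. Mesothelial markers summed to 1.33 to 1.93 TPM in quiescent cells, where Msln, Upk1b and Muc16 were listed at 0, against 2.77 to 4.92 TPM in liver. Portal and capsular fibroblast markers, of which 6 of 11 averaged at least 1 TPM in quiescent cells and 4 in liver, summed to 44.5 to 63.6 TPM in quiescent cells against 7.53 to 9.80 TPM in liver, and none was at 0 throughout. The part of these cells in the members' values was not tested.

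The genes that build, bind and cut these proteoglycans were read from lists. Of 22 tested genes for chondroitin and dermatan sulfate synthesis 20 were higher and 1 lower in quiescent cells, with a median of 3.06 on the log2 scale against 1.62 for all genes; with median-of-ratios rescaling 13 were higher and 2 lower. Chst15, a sulfotransferase, was 226 ± 43.4 TPM in quiescent cells and 1.14 ± 0.560 TPM in liver (17.9% of its exons overlap other gene models). Dse, the epimerase that turns chondroitin into dermatan sulfate, was 175 ± 14.8 TPM in quiescent cells and 0.828 ± 0.445 TPM in liver. All 6 tested keratan sulfate genes were higher (median 3.15), where 67.0% of all genes tested were. The 6 include Fut8, a fucosyltransferase of N-glycans, at 126 ± 2.70 TPM in quiescent cells and 1.37 ± 0.406 TPM in liver.

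All 9 tested collagens to which these proteins bind were higher, where 67.0% of all genes tested were. Their median was 7.54, against 1.62 for all genes. Col14a1, a fibril-associated collagen, was 3081 ± 350 TPM in quiescent cells and 4.86 ± 1.93 TPM in liver, and Col3a1, a fibrillar collagen, 1544 ± 93.8 TPM in quiescent cells and 3.44 ± 0.897 TPM in liver. Of 25 receptors and growth factor partners 21 were higher and 3 lower (median 3.09), or 15 and 4 with median-of-ratios rescaling. Tgfb1, a ligand held by decorin and biglycan, was 123 ± 8.36 TPM in quiescent cells and 0.986 ± 0.380 TPM in liver. All 10 tested proteases that cleave these proteins were higher (median 4.35), 8 of them with median-of-ratios rescaling, such as Mmp2, a gelatinase, at 221 ± 12.7 TPM in quiescent cells and 0.603 ± 0.149 TPM in liver. Among other members of the wider family, Ecm2, the gene next to Aspn, was 23.5 ± 2.02 TPM in quiescent cells and 0.247 ± 0.0692 TPM in liver, while Tsku (tsukushi) was lower, at 20.7 ± 2.95 TPM in quiescent cells and 48.5 ± 11.4 TPM in liver.

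Cultured control cells were set against quiescent cells to see how the family stands after a day on plastic. Dcn stayed abundant, at 5818, 6334 and 6151 TPM in control cultures (rank 4, 4 and 3 among all genes) against 20489 to 24271 TPM in quiescent cells. Bgn was at 2011, 1983 and 2052 TPM in control cultures against 8765 to 10341 TPM in quiescent cells. Prelp was at 433, 467 and 485 TPM in control cultures against 3409 to 3949 TPM in quiescent cells, and Lum at 130, 153 and 146 TPM against 973 to 1044 TPM in quiescent cells. All control cultures lay below all quiescent libraries for these 4 genes.

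Of the 7 members tested 6 were called lower in control cultures, where limma called 13.2% of 12537 genes lower, 18.6% higher and 31.8% in either direction by the same thresholds. Higher genes made up 58.6% of those called, against 43.3% with median-of-ratios rescaling and 48.2% with quantile normalisation, and the same 6 of 7 members were lower under both. Prelp fell by 2.97 (SE 0.07, limma adjusted p = 5.14e-09) and Lum by 2.80 (SE 0.07, limma adjusted p = 5.52e-09) on the log2 scale. Bgn fell by 2.21 (SE 0.07, limma adjusted p = 3.15e-08) and Dcn by 1.89 (SE 0.08, limma adjusted p = 1.34e-07). After quantile normalisation the fall of Dcn was −1.05 (limma adjusted p = 2.88e-06). In mean TPM these levels were 7.86-fold, 7.01-fold, 4.63-fold and 3.70-fold higher in quiescent cells for Prelp, Lum, Bgn and Dcn. Omd fell by 1.61 (limma adjusted p = 9.37e-05), at 0.324 to 0.944 TPM in control cultures (−2.59 with a pseudocount of 0.1), and Podn by 1.25 (limma adjusted p = 7.60e-05), at 12.6 to 18.7 TPM. The median gene moved by 0.26 in the other direction, and relative to it the falls of Prelp, Lum, Bgn and Dcn were −3.23, −3.07, −2.47 and −2.15. Of the 12 stellate cell markers 10 were called lower and 0 higher, with a median log2 fold change of −3.56, a larger fall than that of any member.

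Ogn was the exception. It was at 31.6, 37.4 and 34.6 TPM in control cultures against 44.0 to 51.4 TPM in quiescent cells. Its log2 fold change of −0.42 (95% interval −0.62 to −0.21, limma adjusted p = 0.00241) missed the minimum size of 1, and its libraries did not overlap, as for 70.0% of all genes. Sums of sinusoidal endothelial markers were 8.59 to 11.7 TPM in control cultures, with Stab2 listed at 0, against 320 to 965 TPM in quiescent cells. Sums of Kupffer markers were 0.429 to 1.15 TPM in control cultures against 91.3 to 189 TPM in quiescent cells. Clec4f, Vsig4 and Cd163, markers of Kupffer cells, were listed at 0 in every control culture. Fibroblast markers summed to 23.4 to 25.0 TPM in control cultures against 44.5 to 63.6 TPM in quiescent cells. The part of these cells in the members' falls was not tested.

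The surrounding genes were mixed. Of 22 genes for chondroitin and dermatan sulfate synthesis 2 were higher and 5 lower in control cultures, with a median of −0.28 against 0.26 for all genes. Chst15 fell to 60.5 ± 6.39 TPM in control cultures, against 226 ± 43.4 TPM in quiescent cells. Ugdh, which makes the UDP-glucuronic acid these chains are built from, rose to 98.8 ± 3.44 TPM in control cultures, against 29.6 ± 2.39 TPM in quiescent cells. Of the 6 keratan sulfate genes 1 was higher and 1 lower, and Chst1, a keratan sulfate sulfotransferase, rose to 28.4 ± 2.58 TPM in control cultures against 4.19 ± 0.326 TPM in quiescent cells.

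Of 10 tested collagens 7 were lower and 1 higher in control cultures (median −1.95). Col1a2, a chain of collagen I, was 70.9 ± 10.3 TPM in control cultures and 572 ± 41.2 TPM in quiescent cells. Of 24 receptors and partners 2 were higher and 8 lower (median −0.44). Kdr, the endothelial receptor for VEGF that is also a marker of sinusoidal endothelium, was 0.311 ± 0.171 TPM in control cultures and 35.4 ± 22.2 TPM in quiescent cells. Of 11 proteases 1 was higher and 6 lower (median −1.14). Adamts4, an aggrecanase, was 0.269 ± 0.0508 TPM in control cultures and 18.7 ± 5.37 TPM in quiescent cells, and Mmp3, stromelysin, was 5.80 ± 0.911 TPM in control cultures and 0.138 ± 0.0888 TPM in quiescent cells. Ecm2 was lower as well, at 1.38 ± 0.225 TPM in control cultures and 23.5 ± 2.02 TPM in quiescent cells.

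UDP-glucose was added to ask how cultured stellate cells respond to the P2Y14 ligand. No member was called. Dcn was at 4273, 5032 and 4984 TPM in UDP-glucose cultures, against 5818, 6334 and 6151 TPM in control cultures. All treated libraries lay below all controls, with a log2 fold change of −0.36 (95% interval −0.54 to −0.18, limma adjusted p = 0.15). Bgn was at 1945, 1832 and 2088 TPM in UDP-glucose cultures against 2011, 1983 and 2052 TPM in control cultures. The Bgn values overlapped, and the log2 fold change was −0.05 (95% interval −0.19 to 0.10, limma adjusted p = 0.860), or 0.00 after median-of-ratios rescaling. Prelp was at 365, 357 and 419 TPM in UDP-glucose cultures against 433, 467 and 485 TPM in control cultures. These did not overlap either, with a log2 fold change of −0.28 (95% interval −0.46 to −0.10, limma adjusted p = 0.256). Lum was at 94.7, 121 and 134 TPM in UDP-glucose cultures against 130, 153 and 146 TPM in control cultures, which overlap (log2 −0.30, 95% interval −0.61 to −0.0015, limma adjusted p = 0.497).

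Ogn and Podn gave log2 fold changes of 0.00 (95% interval −0.29 to 0.29) and 0.05 (−0.29 to 0.38). Thus 0 of 6 members tested were called at an adjusted p under 0.05, where limma called 0.609% of 12161 genes (0.428% higher and 0.181% lower). Without adjustment 3 of the 6 members, Dcn, Prelp and Lum, had a limma p under 0.05, against 1220 of all 12161 genes tested. Leaving out any 1 library other than the second control left 20 to 30 genes called in place of 74, and 64 without that control, with no member among them in any of these fits. Groups did not overlap for 2 of the 6 members, against 16.3% of all genes. Fibroblast markers summed to 17.4 to 21.4 TPM in UDP-glucose cultures against 23.4 to 25.0 TPM in control cultures, with none of the 6 tested called, and their part in the members' values was not tested. Fmod, Omd and Aspn were too low to be tested, at 0.175 to 0.317, 0.349 to 1.15 and 0.0624 to 0.241 TPM in UDP-glucose cultures, against 0.165 to 0.322, 0.324 to 0.944 and 0.0887 to 0.171 TPM in control cultures.

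Around the family, none of the 21 chondroitin and dermatan sulfate genes, 6 keratan sulfate genes, 10 collagens, 10 proteases and 4 other family members tested was called with UDP-glucose. Of 22 receptors and partners 2 rose, or 3 with either rescaling. Tgfb3, a transforming growth factor beta ligand, was 256 ± 5.26 TPM in UDP-glucose cultures and 94.4 ± 6.48 TPM in control cultures (log2 1.43, limma adjusted p = 0.000187), and Ccn2, connective tissue growth factor, which binds decorin, was 1663 ± 71.4 TPM in UDP-glucose cultures and 633 ± 17.4 TPM in control cultures (log2 1.39, limma adjusted p = 0.000154). Other gene models overlap 12.4% of the exon bases of Tgfb3 and 23.2% of those of Ccn2. Of 6 vascular smooth muscle markers, genes of contractile cells that activated stellate cells also express, 3 rose with UDP-glucose, with sums of 3607 to 3871 TPM in UDP-glucose cultures against 2046 to 2084 TPM in control cultures.

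**Figure D2:**
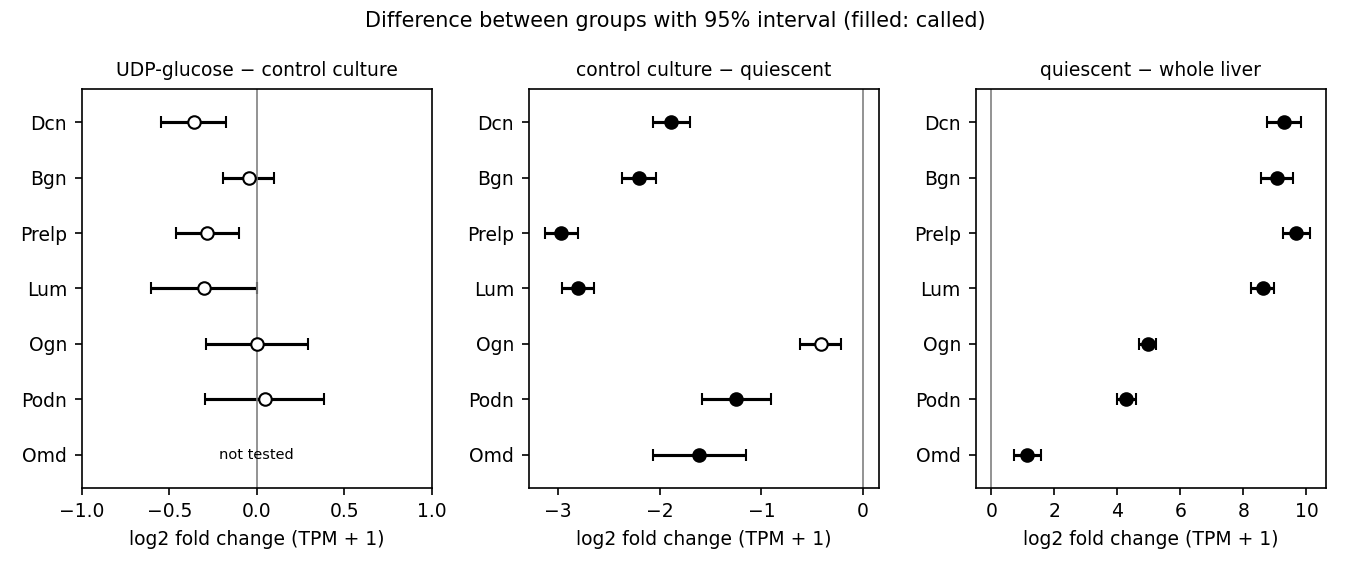
Log2 fold change on the TPM + 1 scale (horizontal axis, with a scale of its own in each panel) of 7 members in the 3 comparisons, with 95% intervals; filled points were called and open points were not. The intervals of Dcn, Prelp and Lum lie below 0 with UDP-glucose without a call, 6 members lie at −1.25 or lower in control cultures relative to quiescent cells, and 4 members lie at 8.61 or higher in quiescent cells relative to liver.

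Summed over the 9 members, the family took 7267 ± 493 TPM in UDP-glucose cultures (n = 3), 8773 ± 295 TPM in control cultures (n = 3), 36637 ± 2148 TPM in quiescent cells (n = 4) and 63.1 ± 23.8 TPM in liver (n = 3, SD throughout). That is 0.728% ± 0.0493, 0.879% ± 0.0295, 3.67% ± 0.215 and 0.00631% ± 0.00238 of all TPM in that order. With median-of-ratios rescaling the sums were 4781 TPM in UDP-glucose cultures, 5575 TPM in control cultures, 28778 TPM in quiescent cells and 194 TPM in liver. Dcn made up most of it everywhere, with 65.5% ± 2.32 in UDP-glucose cultures, 69.5% ± 0.785 in control cultures, 61.6% ± 1.65 in quiescent cells and 58.9% ± 1.89 in liver. Prelp was 5.24% ± 0.353 of the sum in UDP-glucose cultures, 5.26% ± 0.174 in control cultures, 9.91% ± 0.635 in quiescent cells and 5.71% ± 0.857 in liver. Lum was 1.6% ± 0.172 of it in UDP-glucose cultures, 1.63% ± 0.0842 in control cultures, 2.74% ± 0.164 in quiescent cells and 2.57% ± 0.111 in liver.

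Ratios within a library do not depend on how the library is scaled. Bgn stood at 45.5, 36.4 and 41.9 TPM per 100 TPM of Dcn in UDP-glucose cultures, and at 34.6, 31.3 and 33.4 in control cultures. It stood at 42.8, 40.4, 38.0 and 44.5 in quiescent cells and at 48.0, 45.5 and 45.2 in liver. Control cultures had the lowest values and overlapped with no other group. On the log2 scale UDP-glucose cultures were 0.31 above control cultures (exact two-sided permutation p = 0.1, the smallest that 3 against 3 libraries allow). Control cultures differed from quiescent cells by −0.32, and quiescent cells from liver by −0.16 (exact two-sided permutation p = 0.0571 for each, the smallest that 4 against 3 libraries allow). Adjusted over 9 ratio tests these p-values were 0.15, 0.103 and 0.103, so no ratio could pass 0.05 in this design.

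The ratio of Prelp to Dcn differed by −1.09 on the log2 scale between control cultures and quiescent cells, that of Lum to Dcn by −0.93, and neither overlapped between the groups (exact permutation p = 0.0571 for each). In quiescent cells relative to liver, Prelp to Dcn was 0.74 higher without overlap (exact permutation p = 0.0571), while Lum to Dcn differed by 0.03 (exact permutation p = 0.686). With UDP-glucose, Prelp to Dcn and Lum to Dcn differed from control cultures by 0.08 and 0.05, with overlapping libraries (exact permutation p = 0.4 and 0.7).

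**Figure D3:**
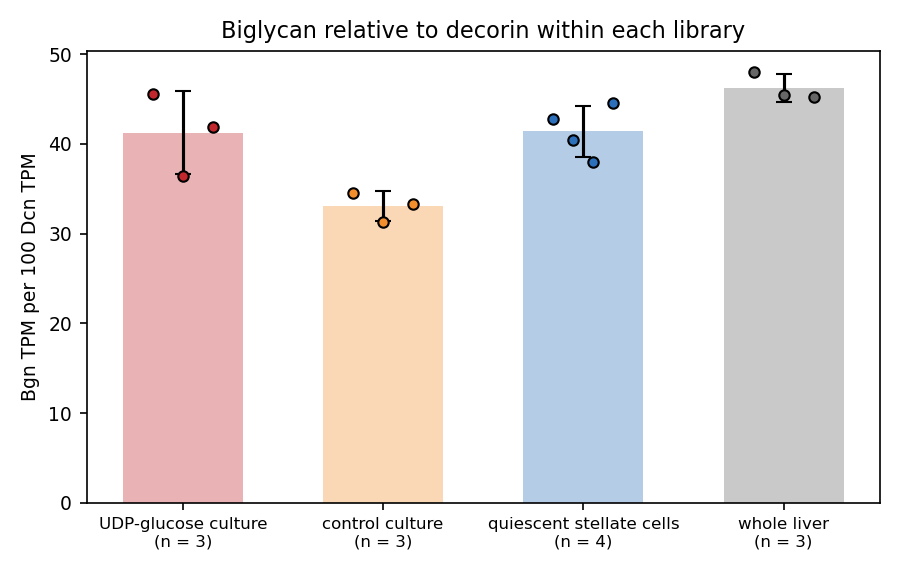
Bgn TPM per 100 Dcn TPM in each bulk library; bars are group means from 0, error bars are SD and points are libraries. Control cultures (31.3 to 34.6) lie below UDP-glucose cultures (36.4 to 45.5), quiescent cells (38.0 to 44.5) and whole liver (45.2 to 48.0).

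For the 6 members that reached 10 TPM in a group mean, the genes nearest in pattern were found among 12100 genes by the root mean square distance between centred log2(TPM + 1) profiles over the 13 libraries. For Dcn they were Gdf2, a bone morphogenetic protein made in the liver (distance 0.173), Bgn (0.203) and Reln, the matrix glycoprotein reelin (0.318). For Bgn they were Gdf2 (0.193), Dcn (0.203) and Bmp5, another bone morphogenetic protein (0.303), though 46.7% of the exon bases of Bmp5 overlap other gene models. Lum was nearest to Efemp1 (fibulin 3, 0.254), Pth1r (a parathyroid hormone receptor, 0.254) and Gem (a small GTPase, 0.257). Prelp was nearest to Col14a1 (0.231), Plvap (a protein of endothelial fenestrae and caveolae, 0.258) and Hgf (hepatocyte growth factor, 0.286). Ogn was nearest to Asap1, Pard6g and Tanc1 (0.120 to 0.147) and Podn to Spred2, Bcl2 and Sox4 (0.152 to 0.170), though 54.6% of the exon bases of Sox4 overlap other gene models. Gdf2 was 341 TPM on average in UDP-glucose cultures and 445 TPM in control cultures, a log2 fold change of −0.38 (limma adjusted p = 0.0648), beside −0.36 for Dcn and −0.05 for Bgn.

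The single-cell library shows which liver cells hold these transcripts. It is 1 library, so cells are not replicates, no test was run, and intervals cover counting error only. Clusters were made without the family's genes and named from markers, so names are rebuilt, and 4807 cells were kept of 5063 barcodes, with a median of 1978 UMIs, the molecular tags that mark single captured transcripts. The stellate-like class held 368 cells, 7.66% of all, with a median of 3095 UMIs. It joined a cluster of 340 cells and one of 28 cells that also carried endothelial transcripts. Kdr stood at 1723 CPM (UMIs scaled to a fixed total) in the 28 cells, 397 CPM in the 340 and 1897 CPM in sinusoidal endothelial-like cells. Lrat, a stellate marker, stood at 237 CPM in the 28 cells and 789 CPM in the 340, and Dcn at 837 and 12978 CPM. Dcn UMIs were found in 21 of the 28 cells and in all 340, and values for the class pool both clusters.

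Of the 16829 Dcn UMIs 87.2% lay in stellate-like cells, as did 83.4% of 951 Lum UMIs, 66.7% of 3079 Prelp UMIs and only 54.5% of 7715 Bgn UMIs. Dcn stood at 12171 CPM in stellate-like cells (95% interval 11975 to 12370), Bgn at 3489 CPM (3384 to 3596), Prelp at 1702 CPM (1629 to 1777) and Lum at 658 CPM (613 to 705). UMIs were found for Dcn in 98.1% of these cells, for Bgn in 98.1%, for Prelp in 93.8% and for Lum in 63.6%. With the 366 cells of at least 1000 UMIs brought down to 1000 UMIs these became 95.9%, 93.4%, 74.6% and 36.9%. Shares at 1000 UMIs leave out cells below that depth, here and in what follows. Ogn stood at 49.8 CPM (38.0 to 64.0) and Podn at 20.7 CPM (13.4 to 30.6) in stellate-like cells, each more than 10 times below Lum. Fmod and Aspn were found in 0 of 368 cells, which allows a share of up to 0.997% among cells of this kind and depth. That limit is on cells with a UMI and not on expression.

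A larger share of the Bgn and Prelp UMIs than of the Dcn and Lum UMIs thus lay outside stellate-like cells. Over the other named classes with at least 40 cells, Dcn ran from 66.2 CPM in erythroid-like cells (46.1 to 92.0) to 328 CPM in plasmacytoid dendritic-like cells (263 to 404). In the latter the highest single cell held 25 of the 88 Dcn UMIs. Dcn stood at 113 CPM in 1430 sinusoidal endothelial-like cells (101 to 126), 107 CPM in 491 hepatocyte-like cells (90.9 to 125), 146 CPM in 423 Kupffer-like cells (123 to 173) and 122 CPM in 356 T cell-like cells (101 to 146). Bgn stood at 456 CPM in sinusoidal endothelial-like cells (431 to 482), against 66.8 CPM in hepatocyte-like cells (54.1 to 81.5), 165 CPM in Kupffer-like cells (140 to 193) and 174 CPM in T cell-like cells (149 to 203). Plasmacytoid dendritic-like cells held 354 CPM (287 to 433), an interval that overlaps that of sinusoidal endothelial-like cells. Their highest single cell held 15 of the 95 Bgn UMIs. In 478 unnamed cells led by Fabp4, Cdh13 and Rspo3 Bgn stood at 751 CPM (696 to 809). Unnamed groups led by Igfbp6, by Plau and Slc39a1, and by Plau and Tspan18 held Bgn at 612 CPM (539 to 693), 534 CPM (466 to 609) and 527 CPM (413 to 662). Their Kdr was at 1007, 1708 and 1234 CPM in that order. Kdr stood at 1563 CPM and Stab2, an endothelial scavenger receptor, at 1300 CPM in these 478 cells, against 1897 and 1382 CPM in sinusoidal endothelial-like cells.

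Prelp stood at 129 CPM in sinusoidal endothelial-like cells (115 to 143) and at 195 CPM in the group led by Fabp4 (167 to 225), against 27.1 CPM in hepatocyte-like cells (19.3 to 37.1) and 56.7 CPM in T cell-like cells (42.6 to 74.0). In plasmacytoid dendritic-like cells it stood at 97.0 CPM (63.3 to 142), which overlaps the endothelial interval. The highest single cell there held 8 of the 26 Prelp UMIs. At 1000 UMIs per cell Prelp was found in 2.70% of plasmacytoid dendritic-like cells, against 12.7% of sinusoidal endothelial-like cells. Lum stood at 8.12 CPM in sinusoidal endothelial-like cells (5.09 to 12.3), 10.8 CPM in the group led by Fabp4 (5.19 to 19.9) and 12.5 CPM in hepatocyte-like cells (7.42 to 19.8), with overlapping intervals. UMIs of Bgn were found in 56.4% of sinusoidal endothelial-like cells (median 1829 UMIs per cell) and in 29.8% of T cell-like cells (median 2490 UMIs), or 35.1% and 11.3% at 1000 UMIs per cell. For Dcn the shares were 18.4% and 24.2%, or 11.4% and 9.92% at 1000 UMIs.

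As a ratio, 28.7 Bgn UMIs were counted per 100 Dcn UMIs in stellate-like cells (27.7 to 29.7). There were 404 in sinusoidal endothelial-like cells (356 to 459), 620 in the group led by Fabp4 (507 to 764), 143 in T cell-like cells (112 to 183), 112 in Kupffer-like cells (88.7 to 143) and 62.3 in hepatocyte-like cells (47.8 to 81.0). Plasmacytoid dendritic-like cells held 108 (79.9 to 146). The part of free RNA and of doublets in these values was not tested. A group of 48 unnamed cells led by Col14a1, Vipr1 and Cd5l, with both stellate and Kupffer markers, held Dcn at 3725 CPM (3450 to 4015), Bgn at 1635 CPM (1455 to 1832) and Clec4f, a Kupffer lectin, at 2275 CPM.

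**Figure D4:**
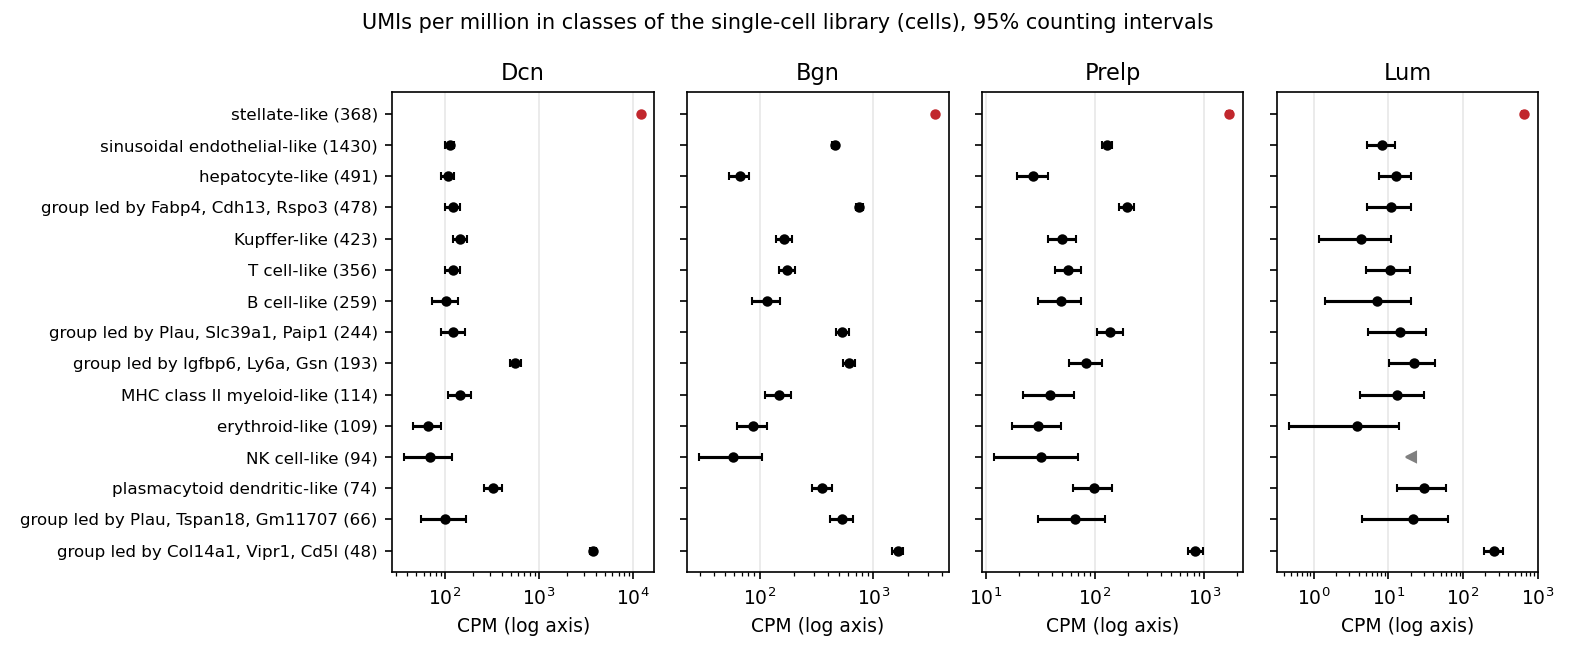
CPM (log axes) of Dcn, Bgn, Prelp and Lum in the classes with at least 40 cells, with the number of cells in brackets; bars are 95% counting intervals and grey arrows are upper limits where no UMI was found. Dcn is at 113 CPM in sinusoidal endothelial-like cells and 328 CPM in plasmacytoid dendritic-like cells, where 1 cell held 25 of the 88 UMIs. Bgn reaches 456 CPM in sinusoidal endothelial-like cells and 751 CPM in the group led by Fabp4.

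Within the larger stellate-like cluster nearly all cells carried several members. All 340 cells had a Dcn UMI, 339 a Bgn UMI, 329 a Prelp UMI, 229 a Lum UMI, 52 an Ogn UMI and 21 a Podn UMI. All 4 of Dcn, Bgn, Prelp and Lum were found in 223 cells, 3 of them in 111 cells and 2 in 6 cells. The 229 cells with Lum had a median of 3333 UMIs and the 111 without it 2672 UMIs.

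Dcn varied far more from cell to cell than Bgn did. The 10th percentile, the median and the 90th percentile over the 340 cells were 3139, 7877 and 29500 CPM for Dcn and 1793, 3677 and 6422 CPM for Bgn. In bins set after the values were seen, Dcn had 2 peaks: 120 cells lay from 4000 to 8000 CPM, 60 from 8000 to 16000 CPM, 81 from 16000 to 32000 CPM and 25 at 32000 CPM or more, with 54 below 4000 CPM. Bgn had 138 cells from 2000 to 4000 CPM, 147 from 4000 to 8000 CPM and 6 above that. For correlations a constant was added to each CPM before log2 was taken, and 111 of these cells had no Lum UMI. Across these cells of 1 library, log2 Dcn and log2 Lum had a Pearson r of 0.56 and Dcn and Bgn one of 0.38. The r was 0.26 for Dcn and Prelp and 0.17 for Bgn and Lum, and all are given as descriptions without a test. Dcn had an r of 0.02 with the cell's log2 UMI total, −0.42 with the summed sinusoidal endothelial markers and −0.38 with the share of mitochondrial UMIs. For Bgn these were −0.26, −0.47 and −0.13. The part of endothelial RNA and of cell quality in the spread was not tested.

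**Figure D5:**
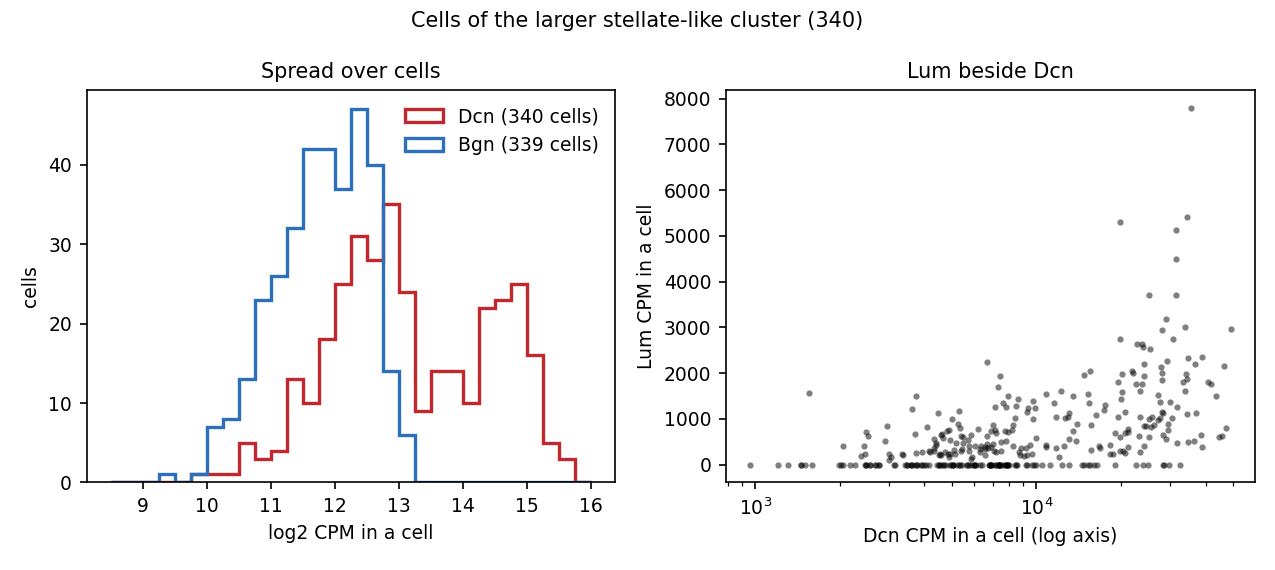
Left, number of cells (vertical axis) by log2 CPM of Dcn and of Bgn in the larger stellate-like cluster; right, Lum CPM against Dcn CPM (log axis), each point 1 of the 340 cells. Dcn has 2 peaks, at about 4000 to 8000 and above 16000 CPM, while Bgn has 1.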

How the data were processed

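Bulk RNA was measured in 13 libraries and single cells in 1. Per the submitters' processing notes, bcl2fastq 2.19, kallisto 0.44.0, DESeq2 and Cell Ranger were used with builds GRCm38 and mm10, with no word on strand. The deposited bulk values are TPM per gene from kallisto, per the labels, in 3 tables, with sums of 998190 to 999797 per library; their read depth is unknown. Of 35197 rows, 26 with dates in place of symbols were dropped (at most 0.319% of TPM). The deposited single-cell values are UMI counts per gene and barcode, whole numbers with no normalisation, 12101368 in all.

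Genes that averaged 1 TPM or more over the groups compared were tested on log2(TPM + 1) with limma 3.58.1 (R 4.3.3, trended variance, Benjamini-Hochberg adjustment), a scale that understates changes of low genes. Calls needed an adjusted p under 0.05 and, except with UDP-glucose, at least 1 on the log2 scale. Ratios were tested by exact permutation. Alternatives were another pseudocount, other filters and scalings, one fit over all bulk libraries and each library left out. The fit was tested on simulated data.

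Barcodes were kept from 500 UMIs and 200 genes upward and up to a mitochondrial share of 20% (4808 of 5063), clustered in scanpy 1.11.5 without the family's genes (2000 variable genes, 30 components, 15 neighbours, Leiden resolution 1) and named where at least 3 markers of a list were among the 50 leading genes. The next list could have no more than 3 there, and the best list had to exceed it by a factor of 1.5 or more, to hold at least 1 of the top 10 genes with no other list ahead, and not to follow a first gene from another list. The unnamed groups, several of them rich in endothelial transcripts, are left out of the named classes. The thresholds of this naming rule were set after seeing the data. The doublet caller marked 1 barcode, too few to have worked, so doublets remain. Intervals are 95% exact Poisson, and exact Clopper-Pearson for shares, and cover counting error only.

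All 9 members are named. From each pathway list up to 4 called genes with the largest changes could be named, and the 3 genes nearest in pattern for each member that reached 10 TPM. The members and lists were chosen with earlier results of these data known.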

Additional observations from a re-analysis of the deposited data

Results flagged for a closer look

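Only the quiescent group held at least 4 libraries, so 11 quantities were checked there: the 9 members, their sum and the log2 ratio of Bgn to Dcn. In 3 of them a single library stood apart from the rest, where chance gives about 1 in 20 for each quantity. The 11 quantities come from the same 4 libraries and are not independent. All 3 are scarce members. Fmod was 1.105 TPM in the third quiescent library, against 0.395 to 0.506 TPM in the others. Ogn was 51.36 TPM in the first quiescent library, against 44.0 to 45.2 TPM in the others, and Omd was 5.117 TPM in that same library, against 3.32 to 3.61 TPM in the others. The gap to the nearest library was 0.843, 0.841 and 0.839 of the group's range for Fmod, Ogn and Omd, above Dixon's 95% critical value for 4 libraries.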

How the results depend on the processing

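No paired analysis was possible because the labels give the groups compared no shared replicate numbers. Of 252 alternative values for 20 member fold changes, 246 kept the direction and the side of the threshold and 6 changed sign. Omd in quiescent cells against liver became −0.16 with median-of-ratios rescaling and −0.36 with quantile normalisation, and Bgn with UDP-glucose became 0.00 with median-of-ratios rescaling. Leaving out 1 library, Ogn with UDP-glucose ranged from −0.12 to 0.11 and Podn from −0.10 to 0.16; the log2 ratio of Lum to Dcn ranged from −0.01 to 0.06 in quiescent cells against liver and from −0.02 to 0.12 with UDP-glucose. The members called in these fits stayed at 7, 6 and 0 in the comparisons of quiescent cells with liver, control cultures with quiescent cells and UDP-glucose with control. The adjusted p of Dcn with UDP-glucose ran from 0.0566 (quantile normalisation) to 0.88 (one fit over 13 libraries). Genes called with UDP-glucose numbered 74, against 30 with no filter on low values, 23 in one fit over 13 libraries and 20 to 64 with 1 library left out; in quiescent cells against liver they numbered 9847, against 6490 with quantile normalisation. The cause was not tested.

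With median-of-ratios rescaling the family's sum was 4781 TPM in UDP-glucose cultures, 5575 TPM in control cultures, 28778 TPM in quiescent cells and 194 TPM in liver. In stellate-like cells Dcn stood at 12978 CPM at Leiden resolution 2 and in the larger cluster alone (a choice made after seeing the data), 12990 CPM with at least 1000 UMIs per barcode and 12962 CPM with at most 10% mitochondrial UMIs. Under the same settings in that order Bgn stood at 3678, 3676 and 3660 CPM and Prelp at 1798, 1798 and 1783 CPM. These settings hold fewer cells in the class. Thinned to 1000 UMIs, the shares of stellate-like cells were 95.9% for Dcn, 93.4% for Bgn, 74.6% for Prelp, 36.9% for Lum, 5.74% for Ogn and 2.46% for Podn; depth limits what can be said of the last 3.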

Other observations

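The scarce members were found in a few cells outside the stellate-like class. The cells were picked after their values were seen and are given as values only. Of 6 Fmod UMIs in the library 5 lay in 1 cell of 8498 UMIs, which carried 7 of the 8 mesothelial markers and also held 6 Podn, 3 Ogn and 25 Dcn UMIs. Another 2 cells also carried 7 mesothelial markers, and each held 2 Ogn UMIs. The only Aspn UMI lay in 1 cell of 4163 UMIs that carried 6 markers of portal or capsular fibroblasts and held 68 Dcn, 4 Ogn and 1 Omd UMIs. Together the 3 cells with mesothelial markers held 7.92 Bgn UMIs per 100 Dcn UMIs (95% interval 3.33 to 16.2), against 28.7 (27.7 to 29.7) in stellate-like cells.

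Over the 340 cells of the larger stellate-like cluster, the genes with the highest Pearson r with Dcn were Ecm1, a secreted matrix protein (0.82), H2-D1, a major histocompatibility class I chain (0.70), and Angptl6, a secreted angiopoietin-like protein (0.68). The lowest were Rps29 (−0.56) and Rps27 (−0.53), both ribosomal proteins. For Bgn the highest were Fcna, a ficolin (0.40), and Cxcl12, a chemokine (0.38), and the lowest Ptprb, an endothelial phosphatase (−0.48). Genes found in few of these cells were left out of this search. All cells share 1 library, and no test was run.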
